A study of Mus musculus with 14 samples.

Results

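Milk protein genes were followed in bone marrow cells of mice: kappa-casein (Csn3), beta-casein (Csn2), alpha-S1-casein (Csn1s1), alpha-lactalbumin (Lalba) and whey acidic protein (Wap). These 5 genes, out of 22180 with a probe that carried a single gene symbol, were picked by name because Csn3 differed between old and young mice on these same arrays. The differences of Csn3 by age are therefore given as a description, with no test. Each of the 5 genes had 1 probe, and 2 of them, Csn3 and Wap, passed the filter on dim genes that left 13805 genes for testing.

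The cells were positive for the surface protein Sca1 and negative for the receptor Kit, sorted from the marrow by flow cytometry straight into lysis buffer, and their amplified RNA was hybridised to 1-colour arrays. All mice were females of the NCR-NU strain, an athymic nude strain that lacks most T cells of thymic origin. There were 4 groups, each array being labelled a biological replicate: young mice without a tumour (cancer-free, n = 3), young mice with one (tumour-bearing, n = 3), old mice without (n = 5) and old mice with one (n = 3). Cancer-free mice carried Matrigel, a basement membrane gel, without tumour cells, and the primary tumours of the other mice were matched for size. The labels give age only as young or old, and the tumour line and whether mice had bred are not given in the sources used here.

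Caseins are the main proteins of milk and travel in micelles that carry calcium and phosphate. Kappa-casein sits on the micelle's surface and keeps it soluble, while beta-casein and alpha-S1-casein fill its core. In the mammary gland the milk protein genes are switched on together in late pregnancy and lactation, when prolactin acts through its receptor and the kinase Jak2 on the transcription factor Stat5, with help from glucocorticoid. Lalba is the regulatory subunit of lactose synthase, and Wap is a whey protein of rodents; neither lies in the casein gene cluster. Bone marrow is no known site of milk protein secretion.

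Stat5 binds the letters TTCNNNGAA, which read the same on both strands, and the 250 bases before the start of each gene were searched for them. The windows of Csn2 and Csn1s1 are shown because they hold 1 match each, while those of Lalba, Wap and Csn1s2a held 0. Csn3 and Csn1s2b have no sequence here. Capitals mark the match. The sequences are RefSeq's on GRCm38.p6, each with 40 bases on either side of the match: Csn2 from chr5:87699470-87699558 on the minus strand, with the match 93 to 85 bases before the start, and Csn1s1 from chr5:87666068-87666156 on the plus strand, with the match 100 to 92 bases before the start.
Csn2: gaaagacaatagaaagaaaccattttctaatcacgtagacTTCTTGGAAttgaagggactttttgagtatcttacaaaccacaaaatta
Csn1s1: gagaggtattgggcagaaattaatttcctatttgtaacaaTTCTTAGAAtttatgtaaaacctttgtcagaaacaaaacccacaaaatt
Of 32851 windows of this length in the RefSeq table, 2306 (7.02%) held the letters, so a match describes the sequence and shows no binding.

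Levels are log2 values, and probes differ in brightness at equal amounts of RNA, so each gene was set against a background limit and not against another gene. The limit was the 95th percentile, on the same array, of 1393 genes taken as silent in female marrow: 1390 olfactory and vomeronasal receptor genes and 3 genes of the Y chromosome. It lay between 4.02 and 4.32 over the 14 arrays. The 99th percentile of the same genes, between 5.29 and 5.86, served as a stricter limit. The pan-leukocyte gene Ptprc lay between 10.53 and 11.36. Kit mRNA lay between 5.25 and 7.03, above the limit on 14 of 14 arrays, although the sorted cells lacked Kit protein. The transcript of Sca1 was not analysed here. The arrays least correlated with the others were replicate 1 of the young and replicate 3 of the old tumour-bearing mice, and values without them are given for Csn3 and for the lactation genes and the marker Epcam whose tumour contrast is described.

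Csn3 was near the background in young mice and above it in every old mouse. In young cancer-free mice its log2 level was 3.89, 4.29 and 3.97, a mean of 4.05 ± 0.21 (SD, n = 3). With a tumour, young mice had values of 4.28, 4.06 and 3.99, a mean of 4.11 ± 0.16 (SD, n = 3). Of these 6 young arrays, 1 reached the background limit, a cancer-free mouse.

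In old cancer-free mice Csn3 was at 5.17, 6.10, 5.69, 4.91 and 5.41, a mean of 5.46 ± 0.46 (SD, n = 5). In old tumour-bearing mice it was at 5.80, 5.79 and 6.55, a mean of 6.05 ± 0.43 (SD, n = 3). All 8 old arrays lay above the background limit and above all 6 young arrays, and 5 of the 8 (2 cancer-free and 3 tumour-bearing) also passed the stricter limit. The lowest old array, cancer-free replicate 4, stood at 4.91 and the highest young array at 4.29. Of the 13805 genes tested, 18 (0.13%) had all old arrays above all young ones, a share from which nothing is read here because Csn3 was chosen for this difference.

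**Figure D1:**
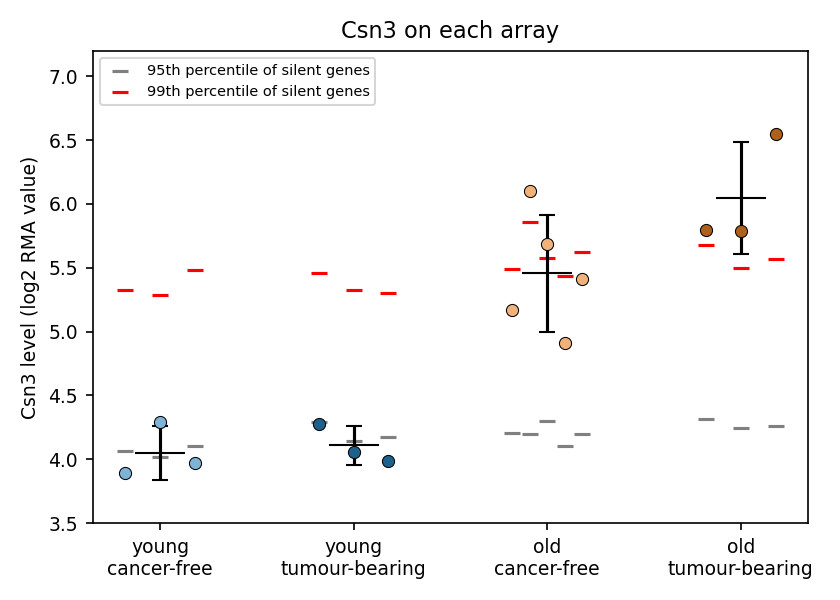
Log2 level of Csn3 on each of the 14 arrays by group (points), with the group mean and SD (bars) and each array's background limit (grey dashes) and stricter limit (red dashes). The 8 old arrays, at 4.91 to 6.55, lie above the 6 young arrays, at 3.89 to 4.29, and the young arrays lie about the background limit of 4.02 to 4.32.

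By group means, both young groups came first, cancer-free before tumour-bearing, and then both old groups in the same order. The young groups differed by less than their SD. The ranges of the old groups overlapped, from 4.91 to 6.10 without a tumour and from 5.79 to 6.55 with one. Only the step between the ages was free of overlap.

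Csn3 was higher in old mice by 1.67 ± 0.19 on the log2 scale (SE of the limma fit) as the mean of the differences with and without a tumour. The difference was 1.41 ± 0.26 in cancer-free mice and 1.94 ± 0.29 in tumour-bearing mice. Because most young arrays lay under the background limit, the fold change was also computed with each of these raised to its own limit. Csn3 was then 2.97-fold higher in old mice on average, against 3.19-fold as measured. The same treatment gave 2.47-fold without a tumour and 3.59-fold with one. These values allow for the limit but not for the spread between mice, so they are not lower bounds. On the log2 scale they are 1.57 on average, 1.30 without a tumour and 1.84 with one. With single arrays left out, the measured differences fell as low as 1.55, 1.24 and 1.69 in the same order. Without the 2 least correlated arrays the average difference was 1.59. In bulk RNA from sorted cells, a change in the number of cells that hold Csn3 and a change in its RNA per cell cannot be told apart.

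Crossings of the background limit between the ages were counted over all genes. Csn3 was the 1 gene of 22180 that was above the limit on all 8 old arrays and on at most 1 young array. In the other direction, 8 genes were above it on all 6 young arrays and on at most 1 old array, and 7889 genes (35.6%) were above it on every array. The allowance of 1 young array fits Csn3's own values, and with 0 young arrays allowed, 0 genes remained. Csn3 was chosen for its age difference on these arrays, so the counts test nothing.

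The presence of a tumour was not part of that choice, so its contrast was tested. The test uses the same arrays and the same estimate of the spread as the age difference, so it is not fully independent of the choice. In young mice the tumour-bearing arrays differed from the cancer-free arrays by 0.06 ± 0.29 (SE), with a 95% interval from -0.56 to 0.68 and a limma adjusted p of 0.986. In old mice Csn3 was 0.59 ± 0.26 higher with a tumour, with a 95% interval from 0.04 to 1.15, an unadjusted p of 0.0387 and a limma adjusted p of 0.490 over all genes tested. The difference in old mice did not pass the test, and 2 of the 3 tumour-bearing values lay below the highest cancer-free value. In that contrast 0 of 13805 genes (0%) passed limma's adjusted threshold of 0.05, against 1348 at an unadjusted p below 0.05. In young mice 0 genes (0%) passed and 745 were below 0.05 unadjusted.

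Averaged over both ages, Csn3 was 0.33 ± 0.19 higher with a tumour (95% interval -0.09 to 0.74, limma adjusted p = 0.578), with 0 genes (0%) passing and 1414 below 0.05 unadjusted. The tumour effect was 0.53 ± 0.39 greater in old than in young mice, a difference that limma did not call either (95% interval -0.30 to 1.37, adjusted p = 0.976), with 0 genes (0%) passing and 610 below 0.05 unadjusted. An exact two-sided permutation of the tumour labels gave p = 0.6 in young mice, where 0.1 is the smallest possible, and p = 0.143 in old mice, where 0.0179 is the smallest. The same exact test over both ages, with labels permuted within each age, gave p = 0.11, and after adjustment over these 3 comparisons the exact p was 0.6, 0.214 and 0.214. Old tumour-bearing replicate 3, which held the highest value, moved the estimate in old mice: without it the difference was 0.34 (limma adjusted p = 0.779).

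The other 4 milk protein genes stayed near or below the background: none was above the limit on every array of any group. Csn2, a major casein of mouse milk, lay between 1.66 and 2.96 over the 14 arrays and above the limit on 0 of them. Its group means were 1.82 ± 0.14 without and 2.05 ± 0.34 with a tumour in young mice, and 2.15 ± 0.20 without and 2.44 ± 0.47 with one in old mice (SD). All of these lie close to the median of the silent genes, which was 1.89 to 2.17 by array.

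Csn1s1 lay between 1.16 and 1.93, also above the limit on 0 of 14 arrays, with its 4 group means between 1.40 and 1.64. Lalba lay between 1.77 and 2.66, above the limit on 0 of 14 arrays, with group means of 2.14 and 2.42 in old mice without and with a tumour and lower ones in both young groups. Old and young arrays overlapped for each of these genes.

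Wap was dim on all arrays but nearer to the limit. It stood at 3.72, 3.02 and 3.90 in young cancer-free mice and at 4.05, 4.01 and 3.84 in young tumour-bearing mice. Old mice had 4.31, 3.81, 3.78, 3.85 and 4.17 without a tumour and, with one, 3.61, 4.23 and 3.72. The groups overlapped, and the single array above the limit was that of old cancer-free replicate 1. Wap passed the filter on dim genes because 6 arrays were above the median of the table. It was not called in any of the 7 contrasts (limma adjusted p from 0.663 to 0.976).

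**Figure D2:**
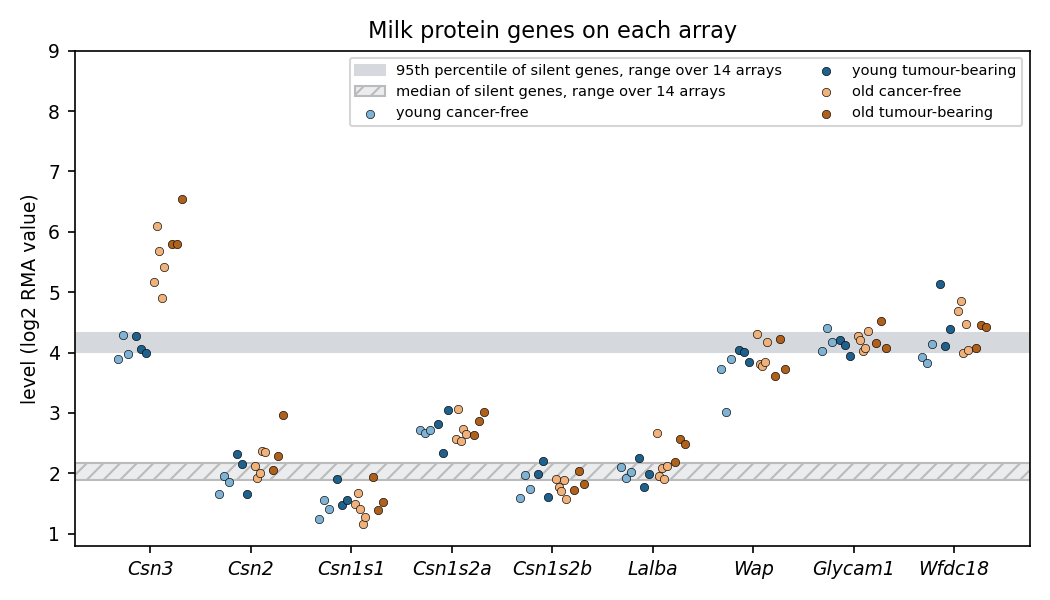
Log2 level on each array, coloured by group, of the 5 milk protein genes and of Csn1s2a, Csn1s2b, Glycam1 and Wfdc18. The grey band is the background limit (4.02 to 4.32 over the 14 arrays) and the hatched band the median of the silent genes (1.89 to 2.17). Csn3 leaves the limit's band in old mice, Csn2, Csn1s1 and Lalba stay at 2.96 or lower, and Wap reaches 4.31 on its highest array.

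Fitted without the filter, so that the dim genes had values too, Csn2, Csn1s1, Lalba and Wap gave 0 calls in 28 comparisons (4 genes in 7 contrasts). The smallest limma adjusted p among them was 0.403, for Csn2 between the ages, and this was also the 1 comparison with an unadjusted p below 0.05. In that fit, 13 of 22180 genes (0.0586%) were called for age on average and 0 (0%) in each of the other 6 contrasts. As both groups lay below the limit in these genes, no fold change is given.

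The calcium-sensitive caseins Csn1s2a and Csn1s2b were as dim, at 2.34 to 3.06 and 1.58 to 2.20, above the limit on 0 of 14 arrays. With Csn2 and Csn1s1, 4 further casein genes beside Csn3 were thus at the background on every array.

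Csn3 lies with the other caseins in a chromosomal run of genes for secreted calcium-binding and salivary proteins, many of them active in milk, saliva or tooth enamel. In the RefSeq order, 16 protein-coding genes run from Csn1s1 to Enam, which encodes the enamel protein enamelin, and 14 of them besides Csn3 had a probe. Of these 14, 13 were above the background limit on 0 arrays. The exception was the predicted gene Gm7714, above it on 1 array, at 4.54. The median level of the run was 2.24 in young mice and 2.30 in old mice. Odam, an enamel and epithelial protein on the Csn1s1 side of Csn3, had means of 1.73 in young and 1.74 in old mice, and Cabs1, a calcium-binding sperm protein on the other side, had 2.38 and 2.34. None of the 13 genes at the background thus gave a level that could be set beside the step in Csn3.

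Beyond the run on the right, Jchain, the joining chain of secreted IgA and IgM, lies 9 places from Csn3 and had a probe above the limit on 14 of 14 arrays. Its level was 12.42 ± 0.10 in young (n = 6) and 12.40 ± 0.12 in old mice (SD, n = 8). On the left, the nearest gene that passed the filter was Ythdc1, a reader of methylated RNA 14 places from Csn1s1, with means of 8.36 and 8.31. Jchain was not called in any of the 7 contrasts (limma adjusted p from 0.899 to 0.992).

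**Figure D3:**
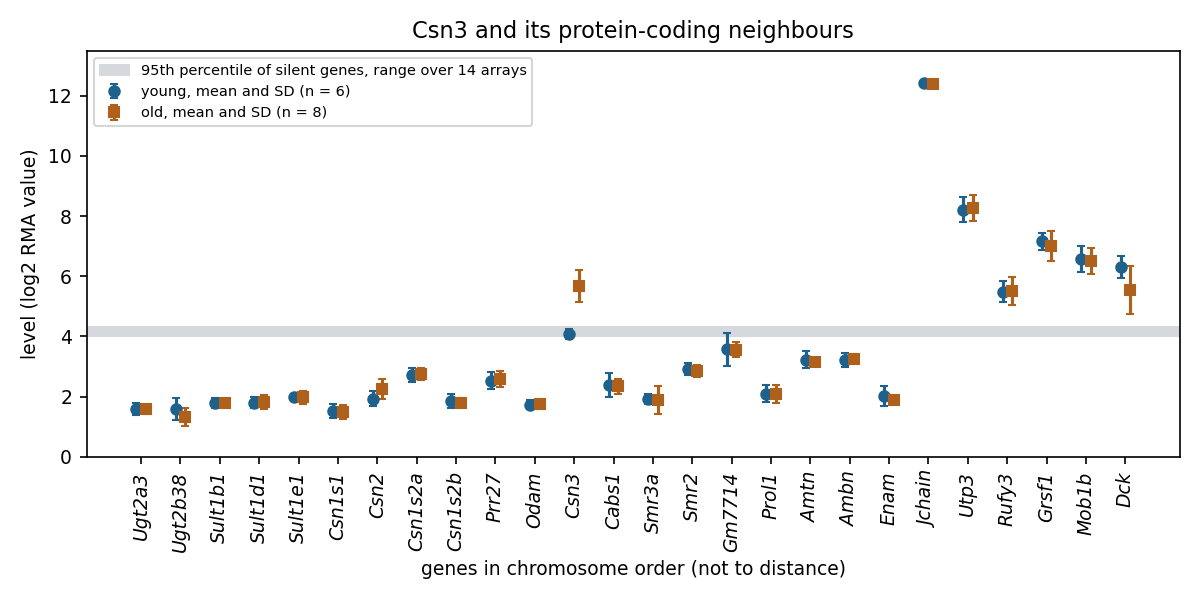
Mean log2 level in young (circles, n = 6) and old mice (squares, n = 8), with SD bars, of Csn3 and the protein-coding genes with a probe around it, in RefSeq order and not to distance; the grey band is the background limit. Csn3 has means of 4.08 and 5.68, the other genes from Csn1s1 to Enam have means below the band in both ages, and Jchain has means of 12.42 and 12.40.

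The wider lactation programme was described from 3 lists: 10 other secreted milk proteins, 8 genes of the milk fat globule and 25 genes of prolactin signalling and its regulators. Of these 43 genes, 40 had a probe with a single gene symbol, 29 passed the filter and 20 were above the background limit on at least 12 arrays. The prolactin receptor Prlr was not analysed here. limma called 0 of the 29 in each of the 7 contrasts, where it called 12 of 13805 genes (0.0869%) for age on average and 0 (0%) in the other 6. At an unadjusted p below 0.05 in limma there were 5 of the 29 for age on average, against 1851 of all 13805 genes. For tumour on average there were 4 of the 29, against 1414 of the 13805. Their median difference was -0.09 for age and -0.06 for tumour, beside -0.01 and -0.01 for all genes tested.

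Among the secreted proteins, 0 of 6 tested were called. Lactoferrin (Ltf), an iron-binding protein of milk and of neutrophil granules, lay between 4.71 and 7.08. Lcn2, which binds bacterial siderophores and is another granule protein, lay between 4.68 and 7.42. Both were above the limit on all 14 arrays. On average they differed by 0.26 ± 0.37 and -0.44 ± 0.36 (SE) between old and young mice, less than 2 SE. The average for Lcn2 joins 0.25 ± 0.48 in cancer-free mice to -1.12 ± 0.54 in tumour-bearing mice (limma adjusted p = 0.502 for the latter). Ltf and Lcn2 are also on the list of neutrophil markers. Wfdc18, a small protein with a whey acidic protein domain, was above the limit on 8 arrays (3.83 to 5.13), and the mucin-like milk protein Glycam1 on 5 arrays (3.95 to 4.52).

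Averaged over the other factor, the 5 tested milk fat globule genes had lower fitted means in old mice and with a tumour, and 0 passed the test. Within single groups there were exceptions, such as Fabp3, which differed by 0.30 ± 0.27 with age in tumour-bearing mice and by 0.25 ± 0.25 with a tumour in old mice. Cd36, a fatty acid transporter named after its values were seen, had the largest average age difference of the 5, -1.44 ± 0.43 (limma adjusted p = 0.184). It spanned 2.80 to 5.41 in young mice and 2.19 to 4.12 in old mice, above the limit on 3 of 6 young and 0 of 8 old arrays. Its average tumour difference was -0.83 ± 0.43 (limma adjusted p = 0.525). Plin2, which coats lipid droplets, differed by -0.47 ± 0.14 with age (limma adjusted p = 0.197) and by -0.42 ± 0.14 with a tumour (limma adjusted p = 0.396). In old tumour-bearing mice it spanned 4.52 to 4.83, below the 5.04 to 5.55 of old cancer-free mice. Mfge8, a bridge for the uptake of dying cells, differed by -0.41 ± 0.13 with a tumour (limma adjusted p = 0.377), and in old mice it spanned 4.98 to 5.11 with a tumour and 5.36 to 6.11 without. Xdh, the xanthine oxidoreductase of the globule membrane, differed by -0.43 ± 0.15 with age (limma adjusted p = 0.244). Fabp3, a fatty acid carrier, spanned 7.27 to 8.40 and differed by -0.03 ± 0.18 with age. Without the 2 least correlated arrays the average tumour difference was -0.36 ± 0.17 for Plin2, -0.40 ± 0.15 for Mfge8 and -0.61 ± 0.47 for Cd36. Of all genes tested, 419 (3.04%) had all old tumour-bearing arrays below all old cancer-free ones, as Plin2 and Mfge8 did.

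Of the intracellular genes of prolactin signalling, Jak2, Stat5a and Stat5b were above the background limit on all 14 arrays. Socs2, on the same list, was above it on 10. Jak2, the kinase bound to the receptor, lay between 6.80 and 7.99. Stat5a lay between 4.74 and 5.71, past the stricter limit on 3 of 14 arrays, and Stat5b between 5.94 and 7.77. The old minus young difference was -0.01 ± 0.22 for Jak2, 0.03 ± 0.18 for Stat5a and -0.00 ± 0.24 for Stat5b (SE), and 0 of the 3 were called. The 95% intervals ran from -0.49 to 0.46 for Jak2, from -0.36 to 0.42 for Stat5a and from -0.51 to 0.50 for Stat5b. The average for Stat5b joins a difference of -0.35 ± 0.31 in cancer-free mice to one of 0.34 ± 0.35 in tumour-bearing mice. In old mice Stat5b was 0.70 ± 0.31 higher with a tumour (unadjusted p = 0.0437, limma adjusted p = 0.505), and 0.31 ± 0.30 higher without old tumour-bearing replicate 3 and young tumour-bearing replicate 1.

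Cish, a feedback inhibitor that Stat5 induces, lay between 6.52 and 8.43 and differed by 0.17 ± 0.37 with age. Nr3c1, the glucocorticoid receptor, lay between 7.12 and 8.29 and differed by -0.27 ± 0.16. Id2, an inhibitor of helix-loop-helix factors needed for alveolar growth, lay between 7.49 and 9.63. It differed by -0.70 ± 0.20 with a tumour, which did not pass limma's adjustment (adjusted p = 0.337). All 3 old tumour-bearing arrays of Id2, at 7.49 to 8.51, lay below the old cancer-free arrays, at 8.66 to 9.63, as was so for 419 of all genes (3.04%). Without the 2 least correlated arrays the average tumour difference of Id2 was -0.66 ± 0.22. In all, 0 of the 18 regulators tested were called.

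**Figure D4:**
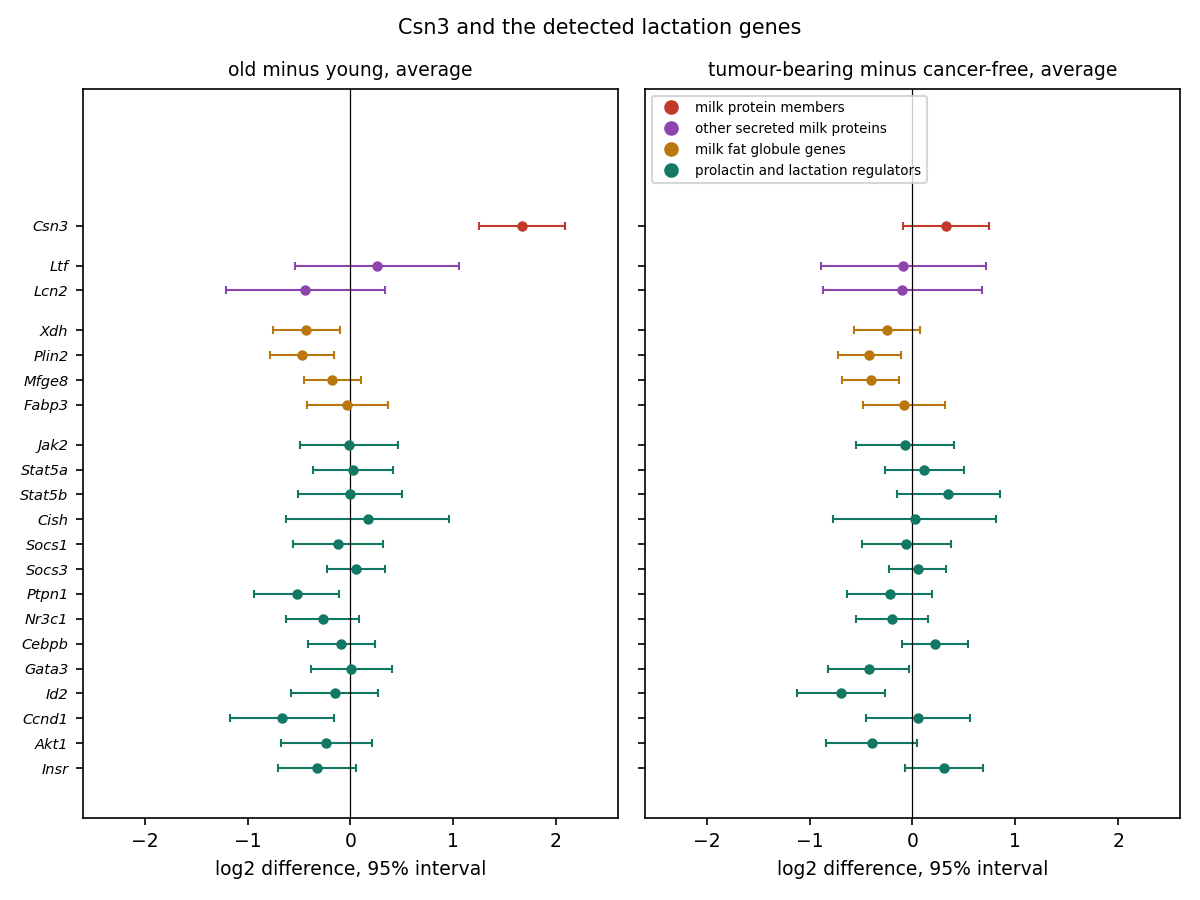
Log2 difference with its 95% interval for Csn3 and for the 20 lactation genes above the background limit on at least 12 arrays, old minus young on the left and tumour-bearing minus cancer-free on the right. Csn3, at 1.67, lies to the right of every other gene in the left panel, and in the right panel it lies at 0.33 with an interval across 0.

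Markers of epithelium, the tissue that makes milk, were looked at beside Csn3. Of 12 luminal epithelial markers with a probe, Epcam, Cldn7 and Cdh1 were above the limit on all 14 arrays. Krt7 and Krt8 were above it on 12, Cldn4 on 6, Cldn3 on 4, Krt18 and Krt19 on 1, and Elf3, Ehf and Esrp1 on 0. The mean of the luminal list by array ran from 4.09 to 4.41 without and from 4.30 to 4.49 with a tumour in young mice. In old mice it ran from 4.14 to 4.37 without and from 4.54 to 4.71 with a tumour, with no overlap. Among single genes, 430 of 13805 (3.11%) had all old tumour-bearing arrays above all old cancer-free ones. That share is no measure for the mean of a list, for which none was computed. With all arrays kept, 9 of the 9 markers tested had a higher mean with a tumour in old mice. Their median difference was 0.38, beside 0.01 for all genes tested. The same 9 had higher means in old than in young tumour-bearing mice, a comparison that uses the same old tumour-bearing arrays. In cancer-free mice, 5 of the 9 were higher and 4 lower in old mice. In young mice, 7 were higher and 2 lower with a tumour. Csn3 had its highest group mean in old tumour-bearing mice too, as did the lists of plasma cell and T cell markers. For plasma cell markers the list mean in old mice ran from 8.76 to 9.53 without and from 9.54 to 9.78 with a tumour. All 9 plasma cell markers had a higher mean with a tumour there. The lists of mature B cell, natural killer cell, plasmacytoid dendritic cell and neutrophil markers had their lowest group mean in old tumour-bearing mice. The part of any of these cells in Csn3 was not tested. Of the basal markers Krt14, Krt17 and Trp63 were above the limit on 0 arrays and Acta2 on 14, and the list mean was 3.72 to 4.29 in young and 3.77 to 4.30 in old mice. limma called 0 of 9 luminal and 0 of 2 basal markers tested, in all 7 contrasts.

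Epcam, an adhesion molecule of epithelia, was at 7.07, 7.31 and 7.33 in young cancer-free mice and at 8.71, 7.56 and 7.64 in young tumour-bearing mice. Old mice had 7.70, 7.90, 7.67, 7.35 and 7.86 without a tumour and 8.30, 8.57 and 8.18 with one. Within each age its tumour-bearing arrays lay above its cancer-free arrays, as was so for 768 genes (5.56%) in young mice and for 430 genes (3.11%) in old mice. The tumour difference was 0.69 ± 0.18 on average (limma adjusted p = 0.317), and the age difference was 0.42 ± 0.18 (limma adjusted p = 0.338). Without the 2 least correlated arrays these were 0.55 ± 0.14 (limma adjusted p = 0.399) and 0.65 ± 0.14 (limma adjusted p = 0.0645), and the tumour difference in young mice was 0.36 in place of 0.73.

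Markers of blood cell types were measured as lists too. The mean of 9 plasmacytoid dendritic cell markers by array was 7.14 to 8.10 in young and 5.84 to 7.28 in old mice. The mean of 8 T cell markers was 6.75 to 8.56 in young and 7.56 and above in old mice. By group, the T cell mean was 8.03 and 7.14 in young mice without and with a tumour, and 8.21 and 8.38 in old mice in the same order. For plasma cell markers, Jchain among them, the mean was 9.42 ± 0.27 in young and 9.42 ± 0.33 in old mice (SD). Split by group, it was 9.41 and 9.43 in young mice without and with a tumour, and 9.26 and 9.68 in old mice. Mean levels in young and old mice were 6.65 and 6.51 for mature B cell, 8.66 and 8.14 for natural killer cell, 7.04 and 6.65 for neutrophil, 3.30 and 3.28 for mesenchymal stromal and 3.88 and 3.77 for endothelial markers. For age on average, 8 of 9 plasmacytoid dendritic cell and 5 of 8 T cell markers had an unadjusted limma p below 0.05. Of all 13805 genes, 1851 did. The median differences of the 2 lists were -1.13 and 0.81, beside -0.01. The count was 2 of 8 for natural killer cell, 1 of 10 for neutrophil and 1 of 6 for endothelial markers. It was 0 for plasma cell, mature B cell and mesenchymal stromal markers. limma called 0 of the tested members of these lists in any contrast, apart from 1 of 6 endothelial markers for age on average. That was Pecam1, an adhesion molecule also found on leukocytes, named after its values were seen, which fell by 0.92 ± 0.15 (SE) in old mice (limma adjusted p = 0.0429), beside 12 of 13805 genes (0.0869%) called in all. This call was lost in 15 of 23 other settings, with a limma adjusted p of 0.156 without young cancer-free replicate 3. The part of these cell types in the difference of Csn3 was not tested.

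Of the 13804 other genes tested, 3 had a Pearson r above 0.9 with Csn3 and 24 had one above 0.8. In the other direction, the lowest r among named protein-coding genes was -0.89 for Tnfrsf9, -0.88 for Gabpb1 and -0.87 for Pdcd11, which were named after their values were seen. The 8 named protein-coding genes with the highest r, which include the split between the ages, were Kcns3 (0.92), Sgsm3 (0.91), Atoh7 (0.90), Myo5c (0.88), Htr1d (0.86), Lrrn4cl (0.85), Tff2 (0.84) and Creb3l3 (0.84). Kcns3 is a potassium channel subunit, Atoh7 a transcription factor of retinal neurons, Myo5c an unconventional myosin of gland cells, Htr1d a serotonin receptor, Tff2 a mucus peptide and Creb3l3 a liver transcription factor. Their old minus young differences of mean level, 0.21 to 0.85, were smaller than that of Csn3, and 2 of the 8 had no overlap between the ages, beside 18 of all genes (0.13%). Nothing is read from that count, since an r that holds the split between the ages favours such genes.

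Of the 8, Atoh7 was above the background limit on 14 arrays, Htr1d on 13, Kcns3 on 12, Sgsm3 and Lrrn4cl on 10, Myo5c on 5, and Tff2 and Creb3l3 on 2. Taken within the groups, as deviations from the 4 group means, their r with Csn3 was between 0.287 and 0.727. By that measure the closest genes were Ell (0.948), Mrc2 (0.899), Bop1 (0.887), Prok1 (0.883) and Lrrc8d (0.882), and none of them is among the 8. Ell is an elongation factor of RNA polymerase II and Bop1 a ribosome assembly factor. Both were above the limit on all 14 arrays, with young and old means of 6.04 and 6.22 for Ell and 5.57 and 5.77 for Bop1. Mrc2 was above it on 0 arrays, Prok1 on 2 and Lrrc8d on 14. With the split between the ages kept, the r of Lrrc8d with Csn3 was -0.18, and its young and old means were 6.75 and 5.86. The arrays share their normalisation, and these r values are descriptions over 14 arrays.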

How the data were processed

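Total RNA of sorted cells was amplified and hybridised to 1 array per mouse, 14 in all. Per the submitters' processing notes, the authors made the deposited log2 values by RMA with oligo 1.32.0 (R 3.2.0). RMA subtracts background, equalises the arrays' distributions and summarises probes, which compresses differences of dim genes. The array's genome build and the arrays normalised together are not given in the sources used here. Precision is limited by the number of arrays.

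Of 41345 probes, 23521 carried 1 gene symbol in GEO's platform annotation, 1814 several and 16010 none. The probe with the highest mean stood for a gene, and 23328 probes matched RefSeq by Entrez identifier. A gene was tested if above the table's median (3.88) on at least 3 arrays. A model of 4 group means was fitted with limma 3.58.1 (R 4.3.3) with 7 contrasts and Benjamini-Hochberg adjustment at 0.05, and the fit was tested on simulated data. P-values measure the spread between mice. The members and lists were chosen with earlier results of these data known. Named were the members, the called and up to 4 brightest detected genes per lactation list, the 8 and 5 genes most like Csn3, and the nearest tested genes beside the caseins. Other regulators, markers and neighbours are named to fill out those lists. Alternatives covered the filter, normalisation, variance, array weights, probe rule, groups fitted, replicate block, background limit, rank correlation and each array left out.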

Additional observations from a re-analysis of the deposited data

Results flagged for a closer look

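Of 37 genes checked in the old cancer-free group, the only one with 4 or more mice, 2 had 1 array far from the other 4, by a rule that flags about 1 in 20 groups by chance. Lalba was at 2.66 in old cancer-free replicate 1 and at 1.90 to 2.12 in the others, a gap of 0.712 of the range, with all values below the background limit. Jchain was at 12.11 in old cancer-free replicate 4 and at 12.41 to 12.48 in the others, a gap of 0.806 of the range. Csn3 had no such array.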

How the results depend on the processing

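The Csn3 age difference on average kept its direction and ran from 1.55 to 1.74 with each array left out and from 1.59 to 1.77 under the other settings. In cancer-free mice it ran from 1.24 to 1.60 and in tumour-bearing mice from 1.69 to 2.07. The tumour effect on Csn3 did not pass in any of the settings run: in old mice it ran from 0.34 to 0.75 (limma adjusted p from 0.394 to 0.779), and on average from 0.16 to 0.41 (0.454 to 0.863). In young mice it ran from -0.03 to 0.18 with each array left out and turned sign to -0.02 without young cancer-free replicate 1, to -0.028 without young tumour-bearing replicate 1, and to -0.028 without the 2 least correlated arrays, an alternative chosen after seeing the data. The cause was not tested. The other 4 milk protein genes, fitted without the filter, gave 0 calls in the settings run for them (not the stricter filter). The lactation lists gave 0 calls in 7 contrasts under 24 settings (only within-age and within-tumour contrasts where just the groups compared were fitted), with a smallest limma adjusted p of 0.0541. By Spearman's rho, 3 of the 8 genes most like Csn3 were shared with those by Pearson's r.

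The genes called for age on average were 12, but 0 without young cancer-free replicate 3, 74 without old tumour-bearing replicate 3, 6 with cyclic loess, 65 with arrays centred on their medians, 57 with array weights and 43 without the 2 least correlated arrays, so the share called is itself unsteady. Replicate numbers did not pair the mice: deviations of same-numbered arrays had a median r of 0.00732 over 18 pairs. With the number as a block, Csn3 differed by 1.77 with age on average, 1.60 without a tumour and 1.94 with one, by 0.06 with a tumour in young mice and 0.40 in old mice, and 0 genes were called. Signals near the background limit, as for Csn3 in young mice, give only an upper bound on the level.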
